A study of Mus musculus with 10 samples.

Results

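The genes described here are 9 genes of B cell follicles and of the chemokine pairs that arrange lymphoid tissue: *Ms4a1*, *Cd79a*, *Cd79b*, *Cr2*, *Fcer2a*, *Cxcr5*, *Cxcl13*, *Ccr7* and *Ccl19*. They were picked by gene symbol from a table of 56691 mouse genes, and each symbol matched exactly 1 gene. RNA was sequenced from snap-frozen colon of 10 male C57BL/6 mice aged 8 weeks. All of them had received 3% dextran sulfate sodium (DSS), a sulfated polysaccharide that injures the colon epithelium, for 7 days. For the 5 mice of the DSS group no further treatment is described, and the 5 mice of the ceAF group then received chick early amniotic fluid (ceAF) by gavage at 15 mL/kg for 10 days. Each mouse is called by its group and number, from DSS-1 and from ceAF-1 upward. Colon from mice without DSS, or given mesalazine, was not analysed here, so no level without injury is given. Which stretch of the colon was taken from each mouse, and on which day, is not given in the sources used here, so ceAF and any difference in time since DSS cannot be told apart. The reads assigned to genes numbered 14676471 to 19901549 in a mouse, with a median of 16426125 for DSS mice and 16058782 for ceAF mice. The comparison asks how much follicle RNA each colon sample held and whether that differed with ceAF.

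The colon wall holds isolated lymphoid follicles and larger colonic patches. Within a follicle, stromal and follicular dendritic cells secrete the chemokine CXCL13, which draws in B cells that carry its receptor CXCR5. The chemokine CCL19, made by stroma of the neighboring T cell zone, draws in naive T cells and mature dendritic cells that carry CCR7. Follicles are scattered along the gut, so a piece of bowel may or may not contain one.

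In these mice the follicle genes differed widely between animals of the same group and did not separate the groups. DSS-1 held the highest level of 8 of the 9 genes, and ceAF-1 and ceAF-4 held the lowest pair of levels in 8 genes, with 0 counts in *Ccl19*. Per mouse, the summed level of the 9 genes in CPM (counts scaled to library size and normalized between libraries) was 223 in DSS-1 and 54.9, 44.9, 52.7 and 70.3 in DSS-2 to DSS-5. It was 16.4, 53.2, 101, 18.4 and 148 in ceAF-1 to ceAF-5. The ceAF mice therefore lay on both sides of DSS-2 to DSS-5. In bulk tissue, fewer cells of a type and less RNA per cell cannot be told apart.

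*Ms4a1* (ENSMUSG00000024673, chr19:11227039-11243605, minus strand, in the build of the deposited table, which is not named) encodes CD20, a surface protein of B cells. Its level was 32.0 CPM in DSS-1 and 6.10, 4.31, 4.10 and 7.5 CPM in DSS-2 to DSS-5, against 1.98, 7.35, 15, 3.16 and 21.3 CPM in ceAF-1 to ceAF-5. The groups overlapped, and the median was 6.10 CPM for DSS and 7.35 CPM for ceAF. *Cd79a* (ENSMUSG00000003379, chr7:24596806-24601622, plus strand) and *Cd79b* (ENSMUSG00000040592, chr11:106202167-106205588, minus strand) encode the signaling chains of the B cell receptor. *Cd79a* stood at 47.3, 8.25, 7.48, 10.3 and 9.54 CPM in DSS-1 to DSS-5 and at 1.98, 9.57, 14.6, 1.97 and 21.5 CPM in ceAF-1 to ceAF-5. *Cd79b* stood at 36.6, 7.90, 5.45, 6.98 and 5.28 CPM in DSS-1 to DSS-5 and at 0.763, 5.86, 10.4, 1.97 and 15.4 CPM in ceAF-1 to ceAF-5. For both chains DSS-1 was highest, then ceAF-5 and then ceAF-3, while ceAF-1 and ceAF-4 lay below each DSS mouse. Without DSS-1, the 4 other DSS mice spanned only 1.38-fold in *Cd79a* and 1.49-fold in *Cd79b*, whereas the 5 ceAF mice spanned 10.9-fold and 20.2-fold.

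*Cr2* (ENSMUSG00000026616, chr1:194819119-194859024, minus strand) encodes a complement receptor of mature B cells and follicular dendritic cells, and *Fcer2a* (ENSMUSG00000005540, chr8:3731737-3744175, minus strand) encodes CD23, the low-affinity IgE receptor of mature B cells. *Cr2* was 16.1 CPM in DSS-1 and 3.05, 2.45, 1.99 and 4.32 CPM in DSS-2 to DSS-5, against 0.610, 3.97, 7.29, 0.656 and 11 CPM in ceAF-1 to ceAF-5. *Fcer2a* was 9.39 CPM in DSS-1 and 1.75, 0.599, 0.640 and 1.20 CPM in DSS-2 to DSS-5, against 0.0763, 1.17, 1.43, 0.239 and 3.68 CPM in ceAF-1 to ceAF-5. In both genes DSS-1 and ceAF-5 were the highest mice and the groups overlapped. The *Fcer2a* values of ceAF-1 and ceAF-4 rest on 1 and 4 counts, so the 48.3-fold span of the ceAF group in this gene carries a large counting error.

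*Cxcr5* (ENSMUSG00000047880, chr9:44423084-44473174, minus strand) encodes the receptor that brings B cells and follicular helper T cells into follicles. Its levels were 8.69, 1.25, 1.26, 1.67 and 2.46 CPM in DSS-1 to DSS-5 and 0.839, 1.17, 3.73, 0.716 and 5.28 CPM in ceAF-1 to ceAF-5. *Cxcl13* (ENSMUSG00000023078, chr5:96104810-96108927, plus strand), the gene of its ligand, was at 59.6, 25.0, 22.3, 24.9 and 37.8 CPM in DSS-1 to DSS-5 and 9.92, 22.6, 45.6, 9.37 and 68.1 CPM in ceAF-1 to ceAF-5. *Cxcl13* was the only gene of the 9 whose highest level was not in DSS-1, since ceAF-5 exceeded DSS-1 by 1.14-fold. DSS-1 was 2.39-fold above the median of the other DSS mice in *Cxcl13*, against 5.32-fold to 11.6-fold in the 8 other genes.

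*Ccr7* (ENSMUSG00000037944, chr11:99035022-99045903, minus strand) encodes the receptor for CCL19 and CCL21. It was at 10.6, 1.25, 0.958, 1.99 and 1.5 CPM in DSS-1 to DSS-5 and at 0.229, 1.37, 2.74, 0.358 and 1.26 CPM in ceAF-1 to ceAF-5. Here ceAF-5, the second highest mouse in 6 genes and the highest in *Cxcl13*, ranked only 6 of 10. *Ccl19* (ENSMUSG00000071005, chr4:42754525-42756577, minus strand) had few reads: 48, 7, 1, 2 and 12 counts in DSS-1 to DSS-5 and 0, 2, 4, 0 and 5 counts in ceAF-1 to ceAF-5. In CPM, DSS-1 had 2.78 and the next mouse, DSS-5, had 0.720. The counts of 0 in ceAF-1 and ceAF-4 allow up to 0.229 and 0.178 CPM, by a limit of 3 counts that covers counting error only. The other 3 ceAF mice lay between 0.130 and 0.275 CPM, on 2 to 5 counts. A level in ceAF-1 or ceAF-4 below that of ceAF-2, DSS-3 or DSS-4, at 0.130, 0.0599 and 0.128 CPM, was not detectable at this depth. The same held for a level in ceAF-1 below that of ceAF-3, at 0.219 CPM. DSS-1 exceeded ceAF-5 by 8.39-fold in *Ccr7* and 10.1-fold in *Ccl19*, but by only 1.46-fold to 2.55-fold in the 6 B cell surface genes from *Ms4a1* to *Cxcr5*.

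**Figure D1:**
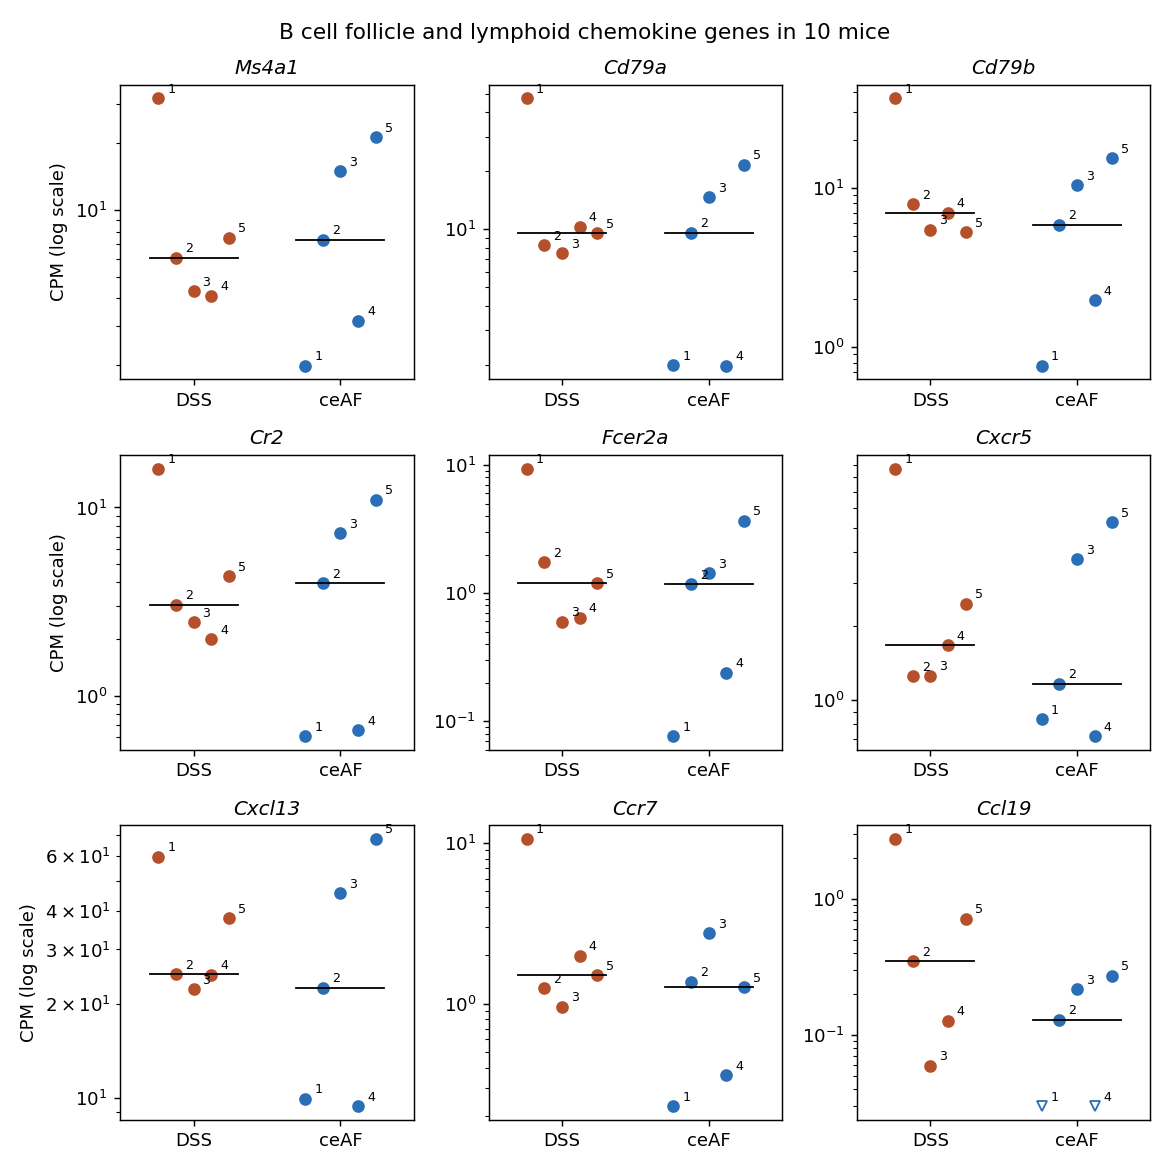
CPM of the 9 genes (vertical axes, log scale, 1 panel per gene) in the 5 DSS and 5 ceAF mice; each point is 1 mouse with its number, black lines are group medians, and open triangles at the lower edge mark counts of 0. DSS-1 is the top point in 8 panels, and ceAF-1 and ceAF-4 are the lowest points in 8, with counts of 0 in *Ccl19*, where their order against other low mice is not resolved.

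Of the 9 genes, 8 had enough counts to be tested between the groups in the fit over 16545 genes, and *Ccl19* did not. None of the 8 was called, which took an adjusted p under 0.05 and an absolute log2 fold change of 1 or more, and in edgeR 0 of the 16545 genes (0.0%) were called. DESeq2 called 26 genes (0.157%), none of them among the 8. At an unadjusted p under 0.05, edgeR passed 0 of the 8, against 1146 genes of the table (6.93%), of which 607 (3.67%) were lower in the ceAF group. The median log2 fold change of the 8 genes, ceAF minus DSS, was −0.55, and that of all genes tested was 0.008. All 8 fitted values were below 0, as were 48.6% of all genes tested.

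The fitted difference was −1.43 (standard error 0.792) for *Ccr7*, with an unadjusted p of 0.0989 and an adjusted p of 0.754 in edgeR. It was −1.02 (standard error 0.939) for *Fcer2a*, −0.85 (0.771) for *Cd79b* and −0.73 (0.733) for *Cd79a*. The values nearest 0 were those of *Cxcl13*, −0.12 (0.532), *Ms4a1*, −0.14 (0.730), *Cr2*, −0.24 (0.815), and *Cxcr5*, −0.37 (0.704). Apart from *Ccr7*, *Fcer2a* and *Cd79b*, each value was smaller than its own standard error. *Cxcl13* was also nearest 0 with upper quartile factors (−0.10), in a robust fit (−0.12) and in DESeq2 (−0.13). With the replicate number as a block it was at −0.40 and was not nearest 0. In limma on FPKM with pseudocounts of 1 and 0.1 it was at −0.44 and −0.47, and *Ms4a1*, at −0.05 and −0.14, was nearest 0. Exact two-sided permutation tests on the mean log2 CPM, over the 252 ways to assign 5 of the 10 mice, gave p from 0.135 for *Ccl19* to 0.857 for *Ms4a1*, where 0.00794 is the smallest p they can give. In a fit without a filter on low counts, *Ccl19* had a log2 fold change of −2.54 (standard error 0.968), with an unadjusted p of 0.0200 and an adjusted p of 0.690 in edgeR. DSS-1 held 48 of the 70 DSS counts of *Ccl19*, and the DSS mean fell from 0.808 to 0.315 CPM without it. No value without DSS-1 is given for this fit.

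The direction of these differences depended on single mice. When DSS-1 was left out, 7 of the 8 fitted log2 fold changes were above 0, as were 53.5% of all genes in that fit, and the median of the 8 was 0.27. *Ms4a1* then stood at 0.84 (standard error 0.613), *Cr2* at 0.69 (0.752), *Cxcr5* at 0.52 (0.604), *Fcer2a* at 0.35 (0.791), *Cxcl13* at 0.19 (0.547), *Cd79a* at 0.17 (0.626) and *Cd79b* at 0.12 (0.660). Only *Ccr7* stayed below 0, at −0.23 (0.590). *Ms4a1*, *Cr2* and *Cxcl13* also turned above 0 without ceAF-1, to 0.12, 0.05 and 0.11, and without ceAF-4, to 0.11, 0.07 and 0.13. None of the 8 passed an unadjusted p under 0.05 in edgeR with or without DSS-1. Without DSS-1, a test added after seeing the data, the exact permutation p of the 9 genes ranged from 0.246 to 0.921. These p-values do not show that the groups held equal amounts of follicle RNA.

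**Figure D2:**
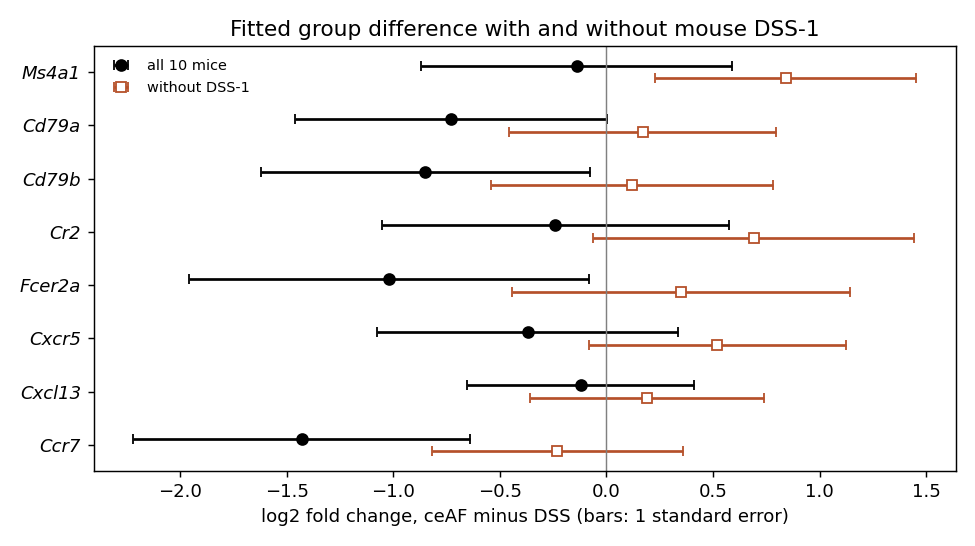
Fitted log2 fold change, ceAF minus DSS (horizontal axis), of the 8 genes tested, with all 10 mice (filled circles) and without DSS-1 (open squares); bars are 1 standard error. Each of the 8 values lies below 0 with all mice, and 7 lie above 0 without DSS-1.

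The 9 genes moved together from mouse to mouse. The log2 CPM of each gene was compared, over the 10 mice, with the mean of the other tested genes of the set after centering each gene. Pearson's r ran from 0.884 for *Ccl19* and 0.894 for *Ccr7* to 0.976 for *Cr2* and 0.983 for *Cd79a*. Without DSS-1 it ran from 0.803 for *Ccl19* to 0.977 for *Cr2*, so the pattern was also shared among the other 9 mice. These values describe genes chosen for a shared cell type and are given without a test. The lowest values belonged to *Ccl19* and *Ccr7*, the chemokine and receptor of the T cell zone. Both had few reads in ceAF-1 and ceAF-4, with 0 counts of *Ccl19* in each and 3 and 6 counts of *Ccr7*. The part of counting error in these r was not tested.

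Among the 15260 other genes with a mean of at least 1 CPM, leaving out immunoglobulin and T cell receptor segments, those most like the mean of the tested follicle genes included *Pax5*, *Bank1*, *Fcmr*, *Fcrl1*, *B3gnt8*, *Cd22* and *Blk*. All of these but *B3gnt8* are known B cell genes: *Pax5* is the transcription factor that maintains B cell identity, *Cd22* encodes an inhibitory coreceptor of the B cell receptor, and *Blk* encodes a kinase of the same pathway. *B3gnt8* encodes a glycosyltransferase that extends N-glycans. Pearson's r over the 10 mice was 0.995 for *Pax5* (Spearman's rho 0.952) and 0.974 for *Blk* (rho 0.867), the ends of the range of r over these genes. Without DSS-1 these r were 0.993 and 0.958. Leaving out DSS-1 and ceAF-1, the mice farthest from the median, gave r of 0.987 and 0.927. *Pax5* was at 27.9 CPM in DSS-1, 11.1 in ceAF-5, 8.34 in ceAF-3, 1.13 in ceAF-4 and 0.687 in ceAF-1, the same ranking as the B cell receptor chains at the top.

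Levels of different genes were compared per exonic length, in the deposited FPKM (fragments per kilobase of exon, scaled to library size). The mean over the 10 mice was 28.7 for *Cxcl13*, 9.26 for *Cd79a*, 6.89 for *Cd79b*, 1.69 for *Ms4a1*, 1.14 for *Ccr7*, 0.826 for *Cxcr5*, 0.670 for *Fcer2a*, 0.645 for *Cr2* and 0.553 for *Ccl19*. Without DSS-1, a value added after seeing the data, the mean fell to 0.394 for *Fcer2a*, 0.651 for *Ccr7* and 0.244 for *Ccl19*, each by over 1.5 times, and *Cr2*, at 0.489, stood above *Fcer2a*. *Cxcl13* exceeded *Cd79a* in 10 of 10 mice, by a mean log2 difference of 1.92 ± 0.566 (SD, n = 10; exact sign-flip permutation test, adjusted p = 0.0078 over 8 neighboring pairs), and *Cd79b* exceeded *Ms4a1* in 10 of 10, by 1.9 ± 0.623 (adjusted p = 0.0078). The unadjusted p of 0.00195 behind both is the smallest that 1024 sign patterns can give. *Cd79a* over *Cd79b*, *Ms4a1* over *Ccr7* and *Cxcr5* over *Fcer2a* also passed, in 9, 8 and 7 of 10 mice (adjusted p = 0.0104, 0.0312 and 0.0406). *Ccr7* and *Cxcr5* (adjusted p = 0.443), *Fcer2a* and *Cr2* (0.232) and *Cr2* and *Ccl19* (0.0651) did not differ beyond their spread between mice. *Fcer2a* ranked above *Cr2* by its mean only, since it was the higher of the pair in just 3 of 10 mice.

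Most proportions between the genes moved less than the levels of the genes compared. The widest FPKM ratios were *Fcer2a* to *Ms4a1*, from 0.077 to 0.587, and *Ccl19* to *Ccr7*, from 0 to 1.1. *Fcer2a* and *Ccl19* rested on few counts in some mice. The FPKM ratio of *Cr2* to *Ms4a1* lay between 0.368 and 0.438 in the 5 DSS mice, ceAF-2, ceAF-3 and ceAF-5, and was 0.234 in ceAF-1 and 0.158 in ceAF-4, where *Cr2* rested on 8 and 11 counts. The ratio of *Cxcl13* to *Ms4a1* was lowest in DSS-1, at 10, and lay between 15.9 and 32.7 in the other 9 mice. DSS-1 was thus less far above the other mice in the stromal chemokine than in the B cell gene. The ratio of *Ccr7* to *Cd79a* was lowest in ceAF-5, at 0.0433, and lay between 0.085 and 0.165 elsewhere. Of 7 such ratios, chosen after the values were seen, 6 could be compared between the groups. Their exact permutation p ranged from 0.0714 (*Fcer2a* to *Ms4a1*, median 0.320 for DSS and 0.190 for ceAF) to 0.897, and the smallest p adjusted over the 6 was 0.428.

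Beside the follicle genes, lists of the other genes of lymphoid tissue and of other cell types were read from the same fit. Of their 140 tested genes, 32 passed an unadjusted p under 0.05, and the adjusted p of these was between 0.656 and 0.717 in edgeR, so none was called. Of 24 other B cell genes, 23 were tested, and their median log2 fold change was −0.52, with 0 genes at an unadjusted p under 0.05. The most abundant were *Ighm*, the heavy chain of IgM, and *Ighd*, that of IgD, which naive B cells carry together on their surface. *Ighd* was 81.7, 9.64, 8.26, 8.90 and 13.7 CPM in DSS-1 to DSS-5 and 1.76, 9.76, 18.5, 1.43 and 25.5 CPM in ceAF-1 to ceAF-5. DSS-1 was the highest mouse in 23 of the 24 genes, against 16.0% of all genes tested. In 20 of the 24, ceAF-1 and ceAF-4 were the lowest pair, against 5.16% of all genes tested. ceAF-5 was the highest ceAF mouse in 19 of the 24 and in 8 of the 9 follicle genes, against 22.1% of all genes tested. Without DSS-1, the median of the 23 was 0.32, with 18 values above 0.

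*Ighm* departed from this ranking: DSS-2, at 123 CPM, and ceAF-3, at 132 CPM, came next after DSS-1, at 179 CPM, while ceAF-5 had 72.2 CPM. Plasma cells, which secrete antibody, also transcribe heavy chain genes. The 8 plasma cell genes had a median log2 fold change of −0.33, or −0.19 without DSS-1. Their summed level, led by *Jchain*, was 1369, 1157, 1013, 1281 and 823 CPM in DSS-1 to DSS-5 and 564, 1154, 1061, 827 and 972 CPM in ceAF-1 to ceAF-5. *Jchain* itself was 173 CPM in DSS-5 and 79.2 CPM in ceAF-1, against 285 to 750 CPM in the 8 other mice, and the sums of DSS-5 and ceAF-1 were carried more by *Xbp1* (447 and 169 CPM) and *Sdc1* (164 and 289 CPM). Only *Derl3*, of protein export from the endoplasmic reticulum, passed an unadjusted p under 0.05, at −0.96 (standard error 0.350).

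The T cell genes took another course. Of 10 tested, 9 were lower in the ceAF group at an unadjusted p under 0.05 in edgeR, and their median log2 fold change was −1.23, or −1.18 without DSS-1, when 8 passed. Their summed level, led by *Cd3g*, was 126, 122, 120, 133 and 44.6 CPM in DSS-1 to DSS-5 and 42.5, 68.2, 54.6, 28.3 and 37.9 CPM in ceAF-1 to ceAF-5. The mice richest in follicle genes were thus not set apart in T cell genes: DSS-1 was close to DSS-2, DSS-3 and DSS-4, and ceAF-5 was lower than ceAF-2 and ceAF-3. *Cd3g*, of the T cell receptor complex, was at −1.47 (standard error 0.265), *Cd3d* at −1.52, *Cd3e* at −1.19, *Trac* at −1.23 and *Trbc2* at −1.25. The surface genes *Cd2*, *Cd4*, *Cd5* and *Cd6* were at −1.22, −1.14, −0.98 and −1.24. Whether the T cell and follicle genes differed from each other in their response was not tested.

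Of 12 germinal center and T follicular helper genes, 11 were tested, their median log2 fold change was −0.59 (−0.36 without DSS-1), and 5 were lower in the ceAF group at an unadjusted p under 0.05. These were genes that T cells express: *Il21*, the cytokine of follicular helper cells (−2.26), *Pdcd1*, which encodes the inhibitory receptor PD-1 (−1.55), *Sh2d1a*, which encodes an adaptor needed for T cell help (−1.30), *Icos*, a costimulatory receptor (−1.23), and *Il21r*, the receptor of IL-21, also on B cells (−0.93). Without DSS-1, 4 of them passed, and *Il21r* did not. *Bcl6*, the factor of both germinal center B cells and follicular helper T cells, was the most abundant gene of this list. *Pdcd1* was at 2.14, 2.35, 1.92, 3.27 and 1.02 CPM in DSS-1 to DSS-5 and at 0.382, 1.17, 1.10, 0.298 and 0.660 CPM in ceAF-1 to ceAF-5. Its ranking was close to that of the T cell genes, with DSS-1 inside the range of the other DSS mice.

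Genes of the follicle's stroma and of lymphoid tissue formation had a median of −0.34 (−0.08 without DSS-1) over 19 tested of 20, and 2 were lower at an unadjusted p under 0.05. *Ltb*, which encodes lymphotoxin beta, a signal from lymphocytes that induces *Cxcl13* in stroma, was at −1.01 (standard error 0.319), and *Pdpn*, a marker of lymphoid stroma and lymphatic vessels, at −1.11 (0.419). *Ltb* stood at 12.1, 7.05, 7.06, 7.69 and 4.44 CPM in DSS-1 to DSS-5 and at 3.36, 4.43, 4.66, 1.73 and 4.78 CPM in ceAF-1 to ceAF-5. ceAF-5, highest in *Cxcl13*, was thus close to ceAF-2 and ceAF-3 in *Ltb*. Without DSS-1, *Ltb* still passed, at −0.78, and *Pdpn*, at −0.60, did not.

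Among 13 tested of 15 other chemokine, homing and egress genes the median was −0.54, and 5 were lower at an unadjusted p under 0.05. *Ccl21a*, the other ligand of CCR7, was at 25.0, 5.65, 7.48, 3.01 and 8.88 CPM in DSS-1 to DSS-5 and at 3.20, 4.82, 2.14, 1.55 and 5.39 CPM in ceAF-1 to ceAF-5, with a log2 fold change of −1.55 (standard error 0.546). It has near-identical copies in the mouse genome, and how reads shared between copies were counted is not given in the sources used here. *Itgb7*, of the gut-homing integrin, was at −1.04, *Ch25h*, which makes the precursor of the attractant of GPR183, at −1.07, and *Cxcl12*, a chemokine of stroma, at −0.54. Without DSS-1, 1 of the 5 still passed, *Itgb7* at −0.89.

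The epithelium over follicles holds M cells, which carry antigen to the lymphocytes beneath. Of 7 genes of this epithelium, 5 were tested, with a median of −0.45. *Gp2* and *Sox8* had too few counts. *Gp2* had 2 counts in DSS-1 and at most 9, in DSS-4, so DSS-1 did not stand out in it. *Sox8* had 20 counts in DSS-1 and 2 to 17 in the other mice. At an unadjusted p under 0.05, *Tnfaip2* was lower with ceAF, at −1.74 on the log2 scale (standard error 0.645), and so was *Pglyrp1*, at −0.45 (0.163). *Tnfaip2* was 120 CPM in DSS-1 and between 5.11 and 23.8 CPM in the 9 other mice, and without DSS-1 neither gene passed, with *Tnfaip2* at −0.59 and *Pglyrp1* at −0.33. ceAF-5 was not raised in it, at 9.46 CPM.

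Markers of other cell types moved with DSS-1 as well. The 6 neutrophil genes, led by *S100a9*, summed to 1561 CPM in DSS-1 and to 15.9, 172, 18.9 and 69.2 CPM in DSS-2 to DSS-5, and to 2.14, 13.5, 14.6, 44.2 and 19.8 CPM in ceAF-1 to ceAF-5. None of the 6 was at 0 in any mouse, their median log2 fold change was −3.96 (−1.52 without DSS-1), and *S100a8*, *S100a9*, *Csf3r*, *Cxcr2* and *Retnlg* passed an unadjusted p under 0.05, of which *S100a9* alone passed without DSS-1, at −2.62. The neutrophil median was −1.89 and −2.36 in limma on FPKM with pseudocounts of 1 and 0.1. With the replicate number as a block it was −2.07. The 8 macrophage genes, led by *Cd14*, were all highest in DSS-1, with a median of −0.54 (−0.33 without DSS-1), and *Adgre1* (−0.58) and *C1qa* (−0.62) passed, neither of them without DSS-1 (−0.51 and −0.52). The 6 fibroblast genes, led by *Col3a1*, summed to 1072 CPM in DSS-1, 468 to 509 CPM in DSS-2 to DSS-5, 161 CPM in ceAF-1 and 443 to 810 CPM in ceAF-2 to ceAF-5. In ceAF-5, whose follicle genes summed to 148 CPM, the neutrophil, macrophage and fibroblast genes stood at 19.8, 173 and 443 CPM, 1.41-fold, 1.13-fold and 0.692-fold the median of the other ceAF mice. ceAF-1 was the lowest of the 10 mice in the neutrophil and fibroblast sums and in that of the macrophage genes, at 73.3 CPM. It was also lowest in the dendritic cell, endothelial and other chemokine and homing sums, at 15.1, 27.2 and 48.5 CPM. It was not lowest in the sums of the T cell, lymphoid stroma, smooth muscle, epithelial or position genes. The part of these cell types in the follicle gene levels of DSS-1 or ceAF-1 was not tested.

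The remaining lists had 0 genes at an unadjusted p under 0.05, apart from the genes of position along the colon. Their medians were −0.45 (−0.19 without DSS-1) for 7 dendritic cell genes, led by *Itgax* and *Fscn1*, −0.46 (−0.21) for 5 endothelial genes, led by *Pecam1* and *Vwf*, −0.19 (−0.10) for 6 smooth muscle genes, led by *Myh11* and *Acta2*, and −0.29 (0.11) for the fibroblast genes, led by *Col3a1* and *Col1a2*. The 9 colon epithelial genes, led by *Muc2* and *Krt8*, had a median of −0.01 and summed to between 14208 and 27265 CPM, so each sample carried the markers of its labeled tissue. The highest sum, in ceAF-1, rested on *Car1*, a carbonic anhydrase, at 11922 CPM in that mouse, which was lowest of the 10 in *Muc2*, at 3294 CPM. Position along the colon was read from 4 *Hox* genes, with a median of 0.80 in edgeR but 0.10 and 0.08 in limma on FPKM with pseudocounts of 1 and 0.1. *Hoxb13*, a gene of the distal colon and the most abundant of them, was 76.3, 95.2, 93.0, 112 and 206 CPM in DSS-1 to DSS-5 and 6.18, 215, 149, 10.2 and 185 CPM in ceAF-1 to ceAF-5. The mice lowest in follicle genes, ceAF-1 and ceAF-4, were thus also lowest in *Hoxb13*, apart from the other 8 mice. They were not alike in *Hoxb6*, at 91.0 CPM in ceAF-1, the highest of the 10 mice, and 2.98 CPM in ceAF-4. *Hoxb6* was 1.27, 25.3, 36.6, 22.4 and 0.96 CPM in DSS-1 to DSS-5. In ceAF-2, ceAF-3 and ceAF-5 it was 0.846, 17.4 and 0.88 CPM. DSS-1 and ceAF-5, the mice richest in follicle genes, were thus low in it, as were DSS-5, ceAF-2 and ceAF-4. *Hoxd13* was higher in the ceAF group by its fitted value (2.91, or 2.79 without DSS-1, when it no longer passed), which rested on 121 and 109 CPM in ceAF-2 and ceAF-3, since its median was 7.12 CPM for DSS and 7.25 CPM for ceAF. The summed level of the list was 82.6, 131, 141, 136 and 219 CPM in DSS-1 to DSS-5 and 109, 345, 283, 13.2 and 192 CPM in ceAF-1 to ceAF-5. The part of position in the follicle gene levels was not tested.

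**Figure D3:**
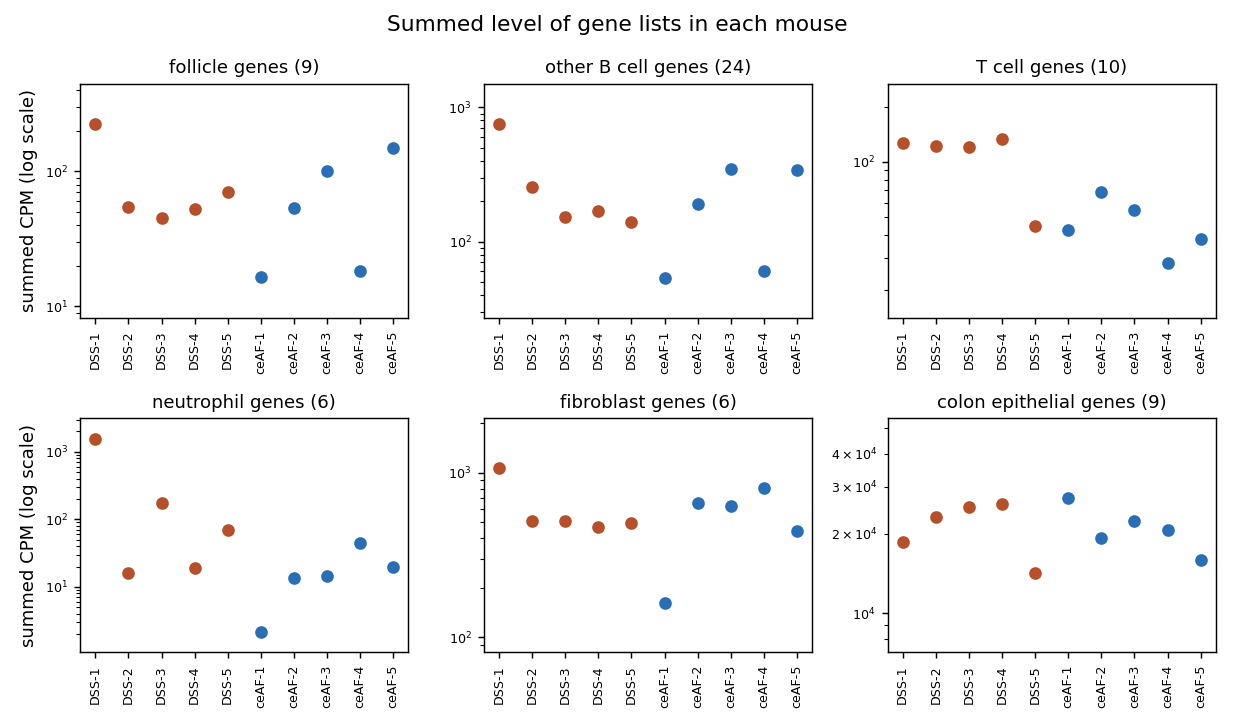
Summed CPM (vertical axes, log scale) of 6 gene lists in each of the 10 mice (horizontal axes; orange DSS, blue ceAF), with the number of genes in parentheses. In both the follicle genes and the other B cell genes DSS-1 is highest and ceAF-1 and ceAF-4 are lowest, and the T cell genes are at 120 to 133 CPM in DSS-1 to DSS-4 and at 28.3 to 68.2 CPM in the other 6 mice.

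Because the follicle genes moved together, the starts of their transcripts were compared. RefSeq promoters, 250 bases before to 50 bases after a transcript start in GRCm38.p6, matched 5 of the 9 genes, with 7 windows. On either strand, none of the 7 held the octamer ATGCAAAT read by B cell factors (1.74% of 32851 promoters hold it), the EBF motif CCCNNGGGA (6.56%), the PU.1 motif GAGGAAGT (3.20%) or the NF-κB consensus (8.46%). The TATA motif TATAAA, held by 13.6% of promoters, occurred in *Cxcl13*, with its first base 46 bases before the start, and in 1 of 3 *Fcer2a* windows, 33 bases before it. The windows of *Cxcl13*, the most abundant of the 9 genes, of *Fcer2a*, which spanned the widest range among the genes tested, and of *Cd79a*, which had the highest r with the others over the 10 mice, though not without DSS-1, are shown 5′ to 3′ with TATAAA in capitals. They lie at chr5:95956689-95956988 (plus strand), chr8:3694125-3694424 (minus strand) and chr7:24897247-24897546 (plus strand). A match in letters is a description only. A missing match concerns the motifs as spelled here, in these 300 bases, so a site that departs from those letters would be missed.
Cxcl13: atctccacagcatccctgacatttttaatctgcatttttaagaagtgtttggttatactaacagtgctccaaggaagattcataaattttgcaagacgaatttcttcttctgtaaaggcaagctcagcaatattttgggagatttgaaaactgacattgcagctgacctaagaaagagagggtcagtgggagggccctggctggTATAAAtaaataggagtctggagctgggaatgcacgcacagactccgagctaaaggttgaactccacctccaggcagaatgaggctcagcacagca
Fcer2a: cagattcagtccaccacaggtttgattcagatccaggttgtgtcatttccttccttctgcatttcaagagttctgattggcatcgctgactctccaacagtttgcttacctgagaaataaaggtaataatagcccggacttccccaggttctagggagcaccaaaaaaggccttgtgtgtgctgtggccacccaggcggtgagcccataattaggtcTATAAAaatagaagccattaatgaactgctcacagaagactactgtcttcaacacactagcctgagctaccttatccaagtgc
Cd79a: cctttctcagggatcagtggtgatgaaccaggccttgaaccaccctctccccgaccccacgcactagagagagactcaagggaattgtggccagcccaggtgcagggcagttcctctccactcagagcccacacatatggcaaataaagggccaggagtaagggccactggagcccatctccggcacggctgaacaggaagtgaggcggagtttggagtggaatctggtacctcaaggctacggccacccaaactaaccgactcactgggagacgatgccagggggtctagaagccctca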

How the data were processed

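The authors deposited 1 table with the counts of reads on each gene and the FPKM of each gene in each mouse. Each FPKM equals the count scaled by exonic length and library total, within 0.01. The submitters' processing notes name cutadapt 1.9.1 and HISAT2 2.2.1; counting program and build are not given in the sources used here. The counts of any pair of libraries in a group differed by more than sampling noise. Mice were grouped by sample labels, and doses come from the study's methods.

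Counts were filtered with filterByExpr (minimum count 10), TMM-normalized and compared by the two-sided quasi-likelihood test of edgeR 4.0.16 in R 4.3.3, with p-values adjusted by Benjamini-Hochberg over all genes tested. Unadjusted p-values in the text are from this fit unless an exact test is named. CPM are TMM-normalized, and log2 CPM add a prior count of 1. FPKM orders used counts plus 0.5. Alternatives were DESeq2 1.42.0, limma 3.58.1 on FPKM, upper quartile scaling, a robust fit, other filters, a replicate block and leaving out mice. The tests were also run on simulated data with 200 changed genes, and the outcome is not reported here. Figures used matplotlib 3.10.9 in Python 3.11.15.

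The members and the gene lists were chosen with earlier results of these data known. Named genes were the 9 members, the genes of each list at an unadjusted p under 0.05 or otherwise its 2 most abundant, and the 8 genes most like the members. *Cd14*, *Jchain*, *Bcl6*, *Hoxb13*, *Hoxb6*, *Car1*, *Xbp1*, *Sdc1*, *Gp2*, *Sox8* and the ratios were named after their values were seen. The values of some genes under this rule are not reported here.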

Additional observations from a re-analysis of the deposited data

Results flagged for a closer look

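In 8 of the 9 genes, DSS-1 lay apart from the 4 other DSS mice. Its gap to the nearest mouse, divided by the range of the group in CPM, was 0.929 for *Cd79a*, 0.917 for *Cd79b*, 0.893 for *Ccr7*, 0.878 for *Ms4a1*, 0.869 for *Fcer2a*, 0.837 for *Cxcr5*, 0.835 for *Cr2* and 0.757 for *Ccl19*, above Dixon's limit of 0.71 for 5 samples. The exception was *Cxcl13*. For normally distributed values, chance passes this limit in about 1 of 20 groups, but these CPM were not log-transformed. The share of all genes in which DSS-1 passes it is not given here. DSS-1 was the highest of the 10 mice in 16.0% of all genes tested. The 8 genes vary together, so they are not 8 separate observations. In the ceAF group, no mouse passed it in any of the 9 genes. The total count of DSS-2, 19901549, was also apart from its group, with a ratio of 0.908; DSS-2 was neither highest nor lowest of the 10 mice in any of the 9 genes.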

How the results depend on the processing

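The median log2 fold change of the members kept within the spread between mice under each alternative, but its sign turned without DSS-1. The 5 other fits of the whole set, by DESeq2, by limma on FPKM with pseudocounts of 1 and 0.1, with upper quartile factors and with a robust fit, left each of the 8 tested genes below 0, as did the other filters for the 9 and 7 genes they kept. Leaving out 1 mouse at a time moved *Ms4a1* between −0.64 and 0.84, *Cd79a* between −1.23 and 0.17, *Cd79b* between −1.38 and 0.12, *Cr2* between −0.82 and 0.69, *Fcer2a* between −1.86 and 0.35, *Cxcr5* between −0.91 and 0.52 and *Cxcl13* between −0.63 and 0.19. The lower end was without ceAF-5 and the upper end without DSS-1 in each. *Ms4a1*, *Cr2* and *Cxcl13* also turned above 0 without ceAF-1 (0.12, 0.05 and 0.11) and without ceAF-4 (0.11, 0.07 and 0.13). Leaving out DSS-1 and ceAF-5 together, a choice made after seeing the data, put *Ms4a1* at 0.33 and *Cr2* at 0.10, with the other 6 below 0. With the replicate number as a block, *Ms4a1* was at 0.09, the median of the position genes was 0.04 and 694 genes passed an unadjusted p under 0.05; over the 5 number pairs the correlation of same-numbered mice was −0.249 to 0.286, so the numbers do not pair mice, and the cause was not tested. The number of members at an unadjusted p under 0.05 was 1 without the filter on low counts (*Ccl19*) and 0 or 1 when leaving out each mouse in turn (*Ccr7* without ceAF-3). Across the table, 26 genes were called by DESeq2, where the cause was not tested, and 0 to 3 when leaving out 1 mouse, with 3 without DSS-5. Genes at an unadjusted p under 0.05 numbered 1733 without the filter, which tests more genes, 558 without both DSS-1 and ceAF-5, which leaves fewer mice, and 712 (without DSS-1) to 1872 (without ceAF-1) leaving out 1 mouse. DSS-1 was the highest mouse in 8 of 9 genes also in deposited FPKM, in CPM without TMM and with upper quartile factors. Depth limits *Ccl19*, *Fcer2a* and *Ccr7*, which had 5 or fewer counts in at least 1 mouse.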
